A study of Mus musculus with 2 samples.

Results

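The genes described here are 54 genes of the actin cytoskeleton and of cell motility, chosen by name, among the 23337 gene symbols of the deposited count table. All 54 had a row, and all 54 reached 5 CPM (a gene's counts divided by all counts of its library, on a common scale) in at least 1 library. By role they include actin monomers and the proteins that bind them, severing and turnover factors, the ARP2/3 complex, its regulators, capping proteins, proteins that elongate or crosslink filaments, linkers to membrane and adhesions, non-muscle myosin II, and the RAC, CDC42 and DOCK genes.

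Expression was measured in regulatory T (Treg) cells, CD4 T cells that make Foxp3 and hold immune responses in check, sorted from injured leg muscle of 8-week-old male mice. The IL-33 group received cardiotoxin, a snake venom toxin lethal to muscle fibres, together with 0.3 ug of recombinant IL-33, a cytokine released by damaged tissue. The PBS group received cardiotoxin together with PBS. Both groups carried the Foxp3-IRES-GFP reporter on the C57BL/6 background, so both were injured and both were sorted by the same marker gene, 5000 cells per library, 4 days after injury. Each group held 1 library, and the labels do not say whether a library pooled mice. There is thus no replicate check of any difference below, and "higher" and "lower" describe the library with IL-33 relative to the library with PBS, not the treatments as such.

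Actin exists as monomers and as filaments, and a moving cell turns one into the other without pause. Thymosin and profilin hold monomers ready, the ARP2/3 complex starts branched filaments under the control of WASP and WAVE proteins, capping protein stops their growth, and cofilin with coronin and WDR1 takes old filaments apart. Filaments are tied to the membrane by the ERM proteins and to integrins by talin and vinculin, and myosin II pulls on them. In lymphocytes DOCK2 and DOCK8 are among the exchange factors that load RAC and CDC42.

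The IL-33 library held 4080791 counts and the PBS library 1573707, so that 1 count is worth 0.245 CPM with IL-33 and 0.635 CPM with PBS. All 8 Treg and T cell markers were counted, with a summed level of 11408 CPM with IL-33 and 11529 CPM with PBS. Among the 6 abundant ones the ratios of IL-33 over PBS ran from 0.721 for Il2ra and 0.873 for Ikzf2 to 1.26 for Cd3d, with Ctla4 at 6186 CPM with IL-33 and 6246 CPM with PBS, whereas Foxp3 itself was thinly counted, at 40 counts with IL-33 and 1 with PBS. Of 18 muscle fibre markers 9 were at 0 in both libraries, and Ttn held most of the counts, at 164 CPM with IL-33 and 206 CPM with PBS. Ratios are IL-33 over PBS in CPM, each with its exact conditional 95% interval. The log2 fold is taken on CPM plus 1. Genes with at least 5 CPM in 1 or both libraries were compared, and 2-fold is the size from which a gene is called higher or lower. Amplified reads without molecular identifiers are not independent molecules, so the intervals cover counting error only.

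The bulk of the actin machinery stood at like levels in both libraries. Of the 54 members, 46 lay within 2-fold, 7 were higher in the IL-33 library (Cfl2, Dstn, Coro1a, Arpc4, Gmfg, Evl and Actn1) and 1 was lower (Vcl). These 8 make 14.8% of the members, while 31.8% of the 9005 genes compared differed by 2-fold or more (15.5% higher and 16.3% lower). Among the 35 members with a mean of at least 200 CPM, Gmfg was the single one past 2-fold, which is 2.86% of these members against 2.22% of all 990 genes at that level. The ratios of these 35 ran from 0.641 (Ezr) to 2.63 (Gmfg), and 25 of them (71.4%) lay between 0.8 and its inverse, as did 594 of all 990 genes at that level. At a mean of at least 50 CPM, 2 of 47 members (Gmfg and Coro1a) were past 2-fold, or 4.26%, against 8.5% of 3566 genes. At 1.5-fold, 12 of 54 members were called, or 22.2%, against 50.9% of all genes compared. Of the 8 members past 2-fold, 5 had fewer than 70 counts in each library.

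The median log2 fold was 0.06 over the 54 members and -0.08 over all genes compared. Scaling by the trimmed mean of M-values (TMM) multiplies every ratio by 1.09 and adds 0.12 to the log2 fold of well-counted genes, less to that of thin ones because of the added 1 CPM. It puts these medians at 0.18 and 0.05. The log2 fold of 5 members lay below 0 by library totals and above 0 under TMM (Tmsb10, Rdx, Tln1, Myh9 and Myl12b). The 54 genes together took 5.07% of all counts with IL-33 (exact 95% limits 5.05 and 5.10) and 4.41% with PBS (4.37 and 4.44). Most of that gap was Tmsb4x. Without it the summed level was 39518 CPM with IL-33 and 37764 CPM with PBS, a ratio of 1.05 (1.04 to 1.06).

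**Figure D1:**
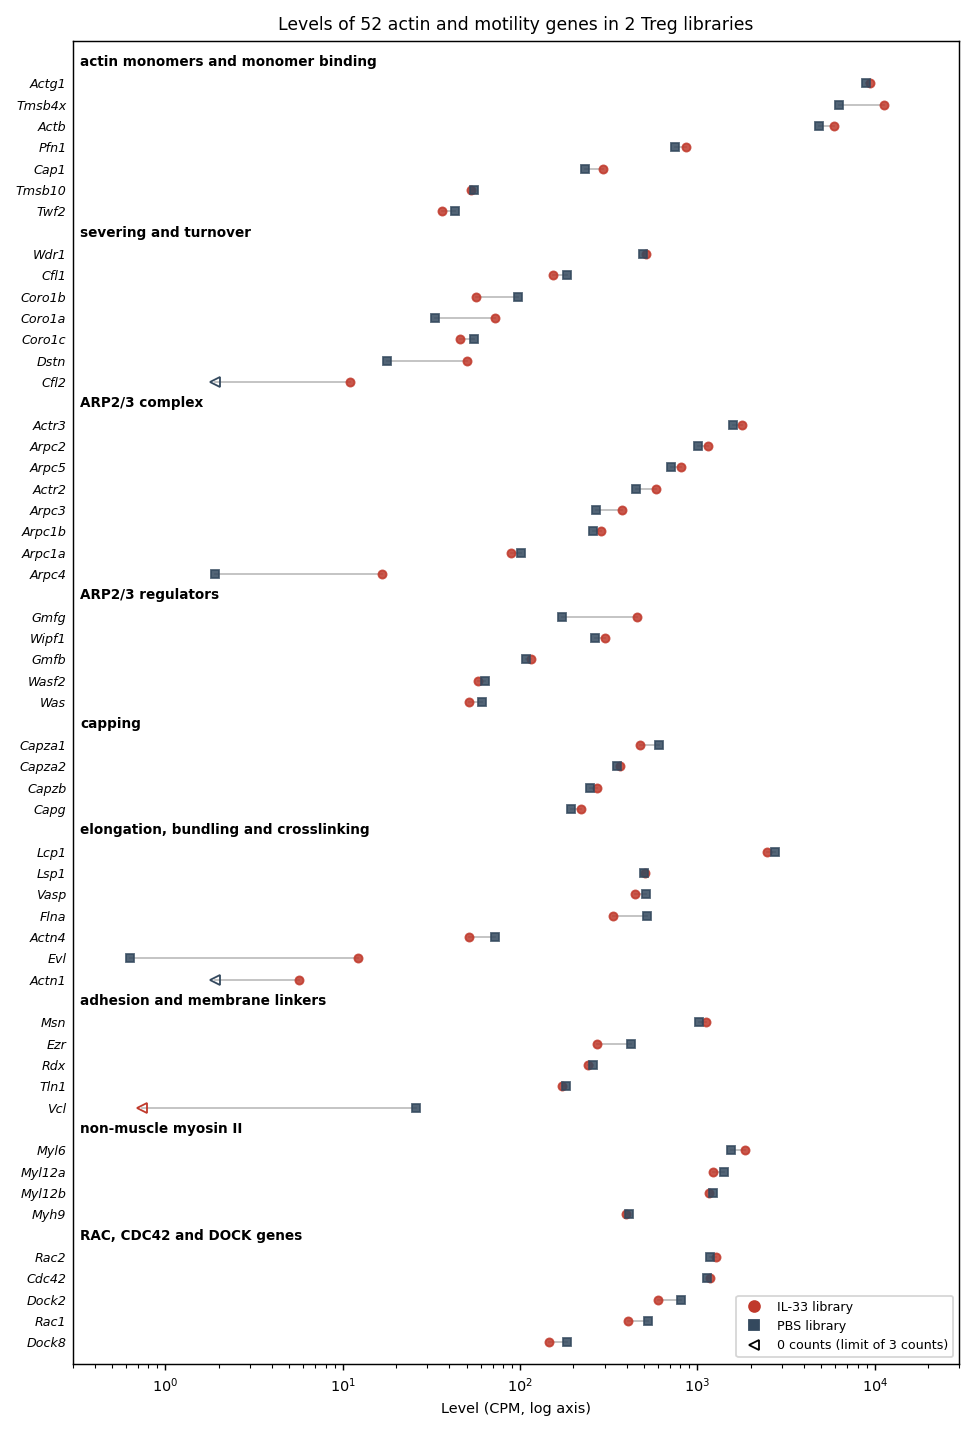
Level of 52 of the 54 genes in CPM on a log axis, 1 row per gene, with a red circle for the IL-33 library, a dark square for the PBS library and an open triangle at the limit of 3 counts where a library had 0. The symbols lie close together for most genes with 200 CPM or more, and the wide gaps are those of Cfl2, Arpc4, Evl, Actn1 and Vcl, each under 70 counts.

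The genes of actin itself and of monomer binding held the highest levels and a median log2 fold of 0.20 (0.32 under TMM), with 5 of 7 members above 0 and none past 2-fold. Tmsb4x encodes thymosin beta 4, the small protein that keeps monomers from joining filaments, and lies on chromosome X, 167207093 to 167209315, minus strand (GRCm38, the assembly that mm10 names). It stood at 11220.1 CPM with IL-33 and 6292 CPM with PBS. Its ratio was 1.78 (1.75 to 1.82), and among the 35 abundant members Gmfg alone had a higher one. Per kb of transcript it was the most abundant member in each library, at 14609.5 CPM per kb with IL-33 and 8192 with PBS.

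Actg1 and Actb encode the cytoplasmic gamma and beta actins. Actg1 was at 9457 CPM with IL-33 and 8950.2 CPM with PBS, a ratio of 1.06 (1.04 to 1.08). Actb was at 5879.5 CPM with IL-33 and 4839 CPM with PBS, a ratio of 1.22 (1.18 to 1.247). The gamma actin gene was thus counted above the beta actin gene in both libraries, also per kb, at 4845 CPM per kb with IL-33 and 4585 with PBS for Actg1 and 3062 CPM per kb with IL-33 and 2520.3 with PBS for Actb. The coding sequences of the pair are 88.6% identical over 1125 bases. Their first 60 coding bases, from the start codon, are shown because reads of 25 bases have to tell the 2 genes apart. Capitals mark the 9 bases that differ. The 5′ part, which codes for the residues by which the 2 actins are told apart, differs at many bases, and the part after it is the same in both.
Actb: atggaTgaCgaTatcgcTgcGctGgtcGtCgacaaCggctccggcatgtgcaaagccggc
Actg1: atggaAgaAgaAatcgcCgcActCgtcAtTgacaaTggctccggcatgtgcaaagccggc
Over the whole coding sequence 12.2% of 25-base windows were the same in both genes, and the longest shared run was 62 bases. Counting the whole principal transcript against all other annotated genes, pseudogenes included, 45.5% of the windows of Actb and 57.3% of those of Actg1 occurred elsewhere. How the authors placed such reads is not stated, so the levels of both actin genes are uncertain. Of the windows of Actb, 29.3% occurred in Lrrc58, with 4890 counts with IL-33 and 1577 with PBS, and 54.4% of those of Actg1 in the predicted gene Gm12715. Of the 54 members, 8 shared at least 50% of their windows with other genes (Actg1, Tmsb10, Actr3, Arpc1b, Gmfg, Capza1, Myl6 and Rac1), and 30 shared less than 10%. Among those 30, the members past 2-fold were Cfl2, Dstn and Coro1a.

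Pfn1, which encodes profilin and feeds monomers to growing ends, was at 866 CPM with IL-33 and 752 CPM with PBS, a ratio of 1.15 (1.08 to 1.23). Cap1, whose product recycles monomers from cofilin, was at 295 CPM with IL-33 and 231 CPM with PBS, a ratio of 1.27 (1.13 to 1.44). Both were higher in the IL-33 library by more than counting error, and by less than 1.5-fold. Tmsb10, the second thymosin gene, had 215 counts with IL-33 and 87 with PBS, far below Tmsb4x, and 53.8% of its windows occurred in other genes. Twf2, for the monomer-binding protein twinfilin, stood at 36.5 CPM with IL-33 and 43.2 CPM with PBS. The intervals of Tmsb10, at 0.953 (0.740 to 1.24), and Twf2, at 0.845 (0.630 to 1.14), held 1.

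Severing and turnover genes split. Of these 7, 3 were past 2-fold, beside 31.8% of all 9005 genes compared, and with 7 genes no excess is read from this. Their median log2 fold was 0.06, and -0.26 over those with a mean of at least 50 CPM. Cfl1, the main cofilin gene of blood cells, was at 153 CPM with IL-33 and 183 CPM with PBS, a ratio of 0.834 (0.724 to 0.963). Of its windows 30.3% occurred in other genes. Under TMM the ratio of Cfl1 was 0.907 (0.788 to 1.05), with an interval that held 1. Dstn, which encodes its relative destrin, was higher, at 205 counts with IL-33 and 28 with PBS, a ratio of 2.82 (1.90 to 4.35). Cfl2, known as the muscle form of cofilin, had 45 counts with IL-33 and 0 with PBS. It was at least 4.51-fold higher by its exact conditional interval, and 5.78-fold higher taking 3 counts as the limit with PBS. The 18 muscle fibre markers summed to 189 CPM with IL-33 and 222 CPM with PBS. Of them Myl4, at 37 counts with IL-33 and 0 with PBS, was also higher in level with IL-33. So was Actn2, at 46 counts with IL-33 and 9 with PBS. Ttn was lower, as was Mylpf, at 17 counts with IL-33 and 12 with PBS (4.17 and 7.63 CPM). Of the 18, 9 were at 0 in both, Ckm, Des and Actc1 included. The 8 smooth muscle and pericyte markers summed to 38.2 CPM with IL-33 and 28.0 CPM with PBS. Acta2 had 118 counts with IL-33 and 27 with PBS, Actg2 had 33 counts with IL-33 and 7 with PBS, and 5 were at 0 in both. Tagln, at 5 counts with IL-33 and 10 with PBS, was lower in level with IL-33. The part of such cells in the difference of Cfl2 was not tested. The well-counted member of this path was Wdr1, the cofactor that speeds cofilin, at 516 CPM with IL-33 and 495 CPM with PBS. Its ratio was 1.04 (0.960 to 1.13) by library totals, with an interval that held 1. Under TMM it was 1.13 (1.04 to 1.23), with an interval above 1.

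The coronins, which steer ARP2/3 and cofilin to filaments, went in opposite directions. Coro1a, whose loss in mice and humans causes T cell deficiency, was higher, at 296 counts with IL-33 and 52 with PBS, a ratio of 2.195 (1.63 to 3.01) (chromosome 7, 126699773 to 126707787, minus strand). Coro1b was at 56.6 CPM with IL-33 and 97.9 CPM with PBS, a ratio of 0.578 (0.470 to 0.714), and Coro1c at 46.1 CPM with IL-33 and 55.3 CPM with PBS, a ratio of 0.833 (0.643 to 1.09). Of the windows of Coro1b, 21.9% occurred in Ptprcap, which had 357 counts with IL-33 and 151 with PBS, so reads may be shared between these 2 genes. Coro1a shared 0.232% of its windows with other genes.

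The ARP2/3 complex was slightly higher in the IL-33 library as a group. The summed level of its 8 genes was 5086 CPM with IL-33 and 4386 CPM with PBS, a ratio of 1.16 (1.13 to 1.19). The median log2 fold was 0.19 (0.31 under TMM), and 7 of 8 genes lay above 0. The actin-related proteins ARP2 and ARP3 form the start of the new branch, and the ARPC subunits hold them. Actr3, for the actin-related protein ARP3, was at 1775 CPM with IL-33 and 1588 CPM with PBS, a ratio of 1.12 (1.07 to 1.17). Actr2, for ARP2, was at 583 CPM with IL-33 and 451 CPM with PBS, a ratio of 1.29 (1.19 to 1.41). The subunit genes Arpc2, at 1.15 (1.08 to 1.21), and Arpc5, at 1.14 (1.06 to 1.22), differed as little, and Arpc3 had the highest ratio of the well-counted subunits, 1.40 (1.254 to 1.56), from 376 CPM (IL-33) and 269 CPM (PBS).

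Although each complex holds 1 of each subunit, the transcripts were far from equal per kb. In the IL-33 library the order was Arpc2 at 798 CPM per kb, Actr3 at 692, Arpc5 at 424, Arpc3 at 419, Actr2 at 160.5, Arpc1b at 92.1, Arpc1a at 54.5 and Arpc4 at 7.34. Arpc5 and Arpc3 aside, the PBS library gave the same order. With PBS, Arpc2 was at 696 CPM per kb, Actr3 at 619, Arpc5 at 373 and Arpc3 at 299.7. Actr2 was at 124, Arpc1b at 83.3, Arpc1a at 62.3 and Arpc4 at 0.840. In the IL-33 library Arpc5 and Arpc3 lay close together, and an order between them is not drawn there. Of the windows of Actr3, 68.6% occurred in other genes, as did 55.9% of those of Arpc1b, so their places in the order are uncertain. Arpc4, at 68 counts with IL-33 and 3 with PBS, had a ratio of 8.74 (2.87 to 43.4) and was past 2-fold on 3 counts in the PBS library. It shared 11.5% of its windows with Ttll3 (59 counts with IL-33 and 52 with PBS), and whether the authors' counting dropped reads common to the 2 genes was not tested. Arpc1a and Arpc1b, alternative forms of 1 subunit, had ratios of 0.875 (0.724 to 1.06) and 1.11 (0.987 to 1.24), both with intervals that held 1. Under TMM the ratio of Arpc1b was 1.20 (1.07 to 1.35), with an interval above 1.

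Among the ARP2/3 regulators Gmfg stood out. It encodes glia maturation factor gamma, a blood-cell protein related to cofilin that takes ARP2/3 branches apart, and it lies on chromosome 7, 28437447 to 28448233, plus strand. Gmfg was at 454 CPM with IL-33 and 173 CPM with PBS, a ratio of 2.63 (2.31 to 2.99). This was the widest difference among the 35 abundant members. Of its 25-base windows, 52.9% occurred in the pseudogene Gmfg-ps, for which the table has no row. Its relative Gmfb was at 115 CPM with IL-33 and 109 CPM with PBS, a ratio of 1.06 (0.884 to 1.26).

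The activators of ARP2/3 differed little. Was, the Wiskott-Aldrich syndrome gene on the X chromosome, was at 51.5 CPM with IL-33 and 61.0 CPM with PBS, a ratio of 0.844 (0.660 to 1.09). Wipf1, whose product guards WASP from decay, was at 299 CPM with IL-33 and 263 CPM with PBS, a ratio of 1.14 (1.02 to 1.28). Wasf2, for the WAVE2 protein, was at 58.1 CPM with IL-33 and 63.5 CPM with PBS, a ratio of 0.914 (0.721 to 1.17). The intervals of Was and Wasf2 held 1, and that of Wipf1 came close to it.

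Capping genes lay within 1.5-fold. Capza1, for an alpha subunit of capping protein, was lower in the IL-33 library at 474 CPM with IL-33 and 610.0 CPM with PBS, a ratio of 0.778 (0.719 to 0.841), and 86.2% of its windows occurred in other genes, most of them in the annotated gene Gm3608. Capza2 was at 367 CPM with IL-33 and 351 CPM with PBS, a ratio of 1.04 (0.947 to 1.15), and Capzb, for the beta subunit, was at 1.10 (0.977 to 1.24). Under TMM the intervals of both lay above 1, with Capza2 at 1.14 (1.03 to 1.25) and Capzb at 1.19 (1.06 to 1.34). Capg, a gelsolin-like capper, was at 220.3 CPM with IL-33 and 193 CPM with PBS, a ratio of 1.14 (1.003 to 1.31). The summed level of the 4 genes had a ratio of 0.951 by library totals and 1.03 under TMM. The median log2 fold was 0.10 (0.22 under TMM), with Capza1 alone below 0.

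**Figure D2:**
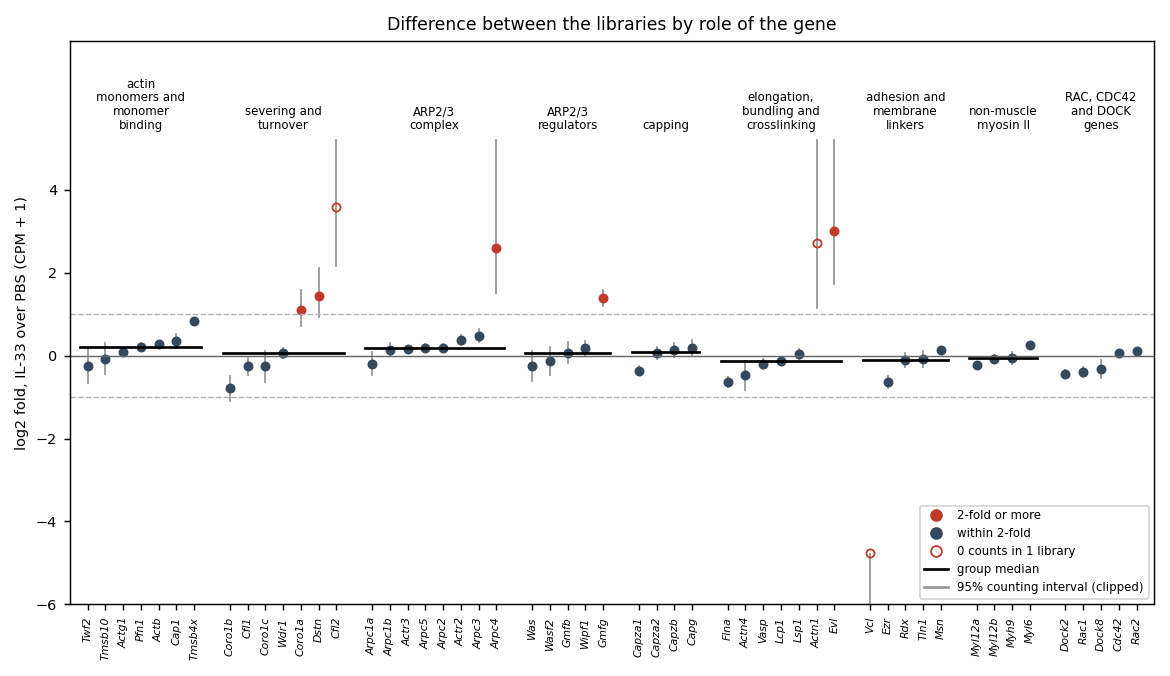
Log2 fold, IL-33 over PBS, of 52 of the 54 genes, sorted within role groups, with grey lines for the 95% counting interval, black lines for the medians of 8 groups, red points at 2-fold or more and open points where a library had 0 counts. These medians lie between -0.14 and 0.20, and the members past 2-fold are spread over 5 of the groups.

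Of the genes that elongate, bundle or crosslink filaments, the 4 abundant ones lay between 0.645 (Flna) and 1.03 (Lsp1). Lcp1, for the leukocyte bundling protein L-plastin, was at 2480.4 CPM with IL-33 and 2731 CPM with PBS, a ratio of 0.908 (0.876 to 0.941). Flna, for filamin A, which crosslinks filaments and binds integrin tails, was at 335 CPM with IL-33 and 519.8 CPM with PBS, a ratio of 0.645 (0.591 to 0.705). Vasp, whose product lengthens filaments, was at 444 CPM with IL-33 and 512 CPM with PBS, a ratio of 0.866 (0.797 to 0.942). Under TMM the ratio was 0.702 (0.643 to 0.766) for Flna, 0.988 (0.953 to 1.02) for Lcp1 and 0.942 (0.866 to 1.02) for Vasp, so that of the 3 Flna alone was then lower by more than counting error. Lsp1, a leukocyte filament-binding protein gene, was at 509 CPM with IL-33 and 497 CPM with PBS, a ratio of 1.03 (0.944 to 1.11). Under TMM the ratio of Lsp1 was 1.11 (1.03 to 1.21), with an interval above 1.

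The remaining 3 genes of this group were thinly counted. Evl, a relative of Vasp, had 50 counts with IL-33 and 1 with PBS, a ratio of 19.3 (3.31 to 777). Actn1, for a crosslinking alpha-actinin, had 23 counts with IL-33 and 0 with PBS and was at least 2.22-fold higher by its exact conditional interval. Actn4, its relative, pointed the other way, at 210 counts with IL-33 and 113 with PBS, a ratio of 0.717 (0.568 to 0.909). The interval of Evl spans more than 100-fold, so the 1 count in the PBS library does not fix the size of the difference.

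Of the 5 linker genes, Ezr and Vcl had lower levels with IL-33, Msn a slightly higher one, and Rdx and Tln1 intervals that held 1. The median log2 fold was -0.11 by library totals and 0.02 under TMM. Moesin is the main ERM protein of lymphocytes, and its gene Msn was at 1112 CPM with IL-33 and 1019 CPM with PBS, a ratio of 1.09 (1.03 to 1.16). Ezr, for ezrin, was lower in the IL-33 library at 272 CPM with IL-33 and 424 CPM with PBS, a ratio of 0.641 (0.582 to 0.707) that stood at 0.697 under TMM. Rdx, for radixin, was at 240.4 CPM with IL-33 and 259 CPM with PBS, a ratio of 0.930 (0.827 to 1.05). Tln1, for talin, which binds integrin tails and switches integrins on, was at 171 CPM with IL-33 and 181 CPM with PBS, a ratio of 0.946 (0.823 to 1.09).

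Vcl, for vinculin, which reinforces the link from talin to actin, had 0 counts with IL-33 and 41 with PBS (chromosome 14, 20929398 to 21033676, plus strand). It was lower in the IL-33 library, with a ratio of at most 0.0363 by its exact conditional interval. Vcl was the single member past 2-fold in that direction. Vinculin is plentiful in fibroblasts and in other firmly attached cells. Of 9 fibroblast markers, 5 were at 0 in both libraries, among them Col1a1, Col1a2, Lum and Sparc, but Col3a1 had 0 counts with IL-33 and 78 with PBS and Dcn 0 counts with IL-33 and 24 with PBS. Their summed level was 10.05 CPM with IL-33 and 83.2 CPM with PBS. The 9 dendritic cell markers summed to 23.3 CPM with IL-33 and 120.1 CPM with PBS. H2-Aa had 18 counts with IL-33 and 97 with PBS and Itgax 0 counts with IL-33 and 19 with PBS, while Zbtb46, at 18 counts with IL-33 and 0 with PBS, and Xcr1, at 42 counts with IL-33 and 12 with PBS, were higher in level with IL-33, and Flt3, Clec9a and Cd209a were at 0 in both. By contrast, the 8 smooth muscle and pericyte markers summed to 38.2 CPM with IL-33 and 28.0 CPM with PBS. The 5 endothelial markers summed to 49.3 CPM with IL-33 and 52.1 CPM with PBS. Most of these counts were of Pecam1, at 198 counts with IL-33 and 71 with PBS. Cdh5, at 3 counts with IL-33 and 11 with PBS, was lower in level with IL-33, and Kdr, Tek and Egfl7 were at 0 in both. The part of cells of any of these kinds in the difference of Vcl was not tested. In addition 39.5% of the windows of Vcl lie on the opposite strand of Ap3m1, a gene with 151 counts with IL-33 and 74 with PBS, and reads from the shared stretch cannot be told apart without strand. In sorted bulk cells, fewer cells of a kind and less RNA per cell cannot be told apart, here and for every gene in this text.

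Non-muscle myosin II differed little, with all 4 genes within 1.5-fold. Myh9, the heavy chain gene, was at 396 CPM with IL-33 and 411 CPM with PBS, a ratio of 0.962 (0.878 to 1.06). Myl6, for the essential light chain, was at 1851 CPM with IL-33 and 1552 CPM with PBS, a ratio of 1.19 (1.14 to 1.248). Of the regulatory light chain genes, Myl12a was lower at 0.862 (0.820 to 0.907), and Myl12b, at 0.952 (0.903 to 1.004), had an interval that held 1. Under TMM Myl12a was at 0.937 (0.891 to 0.986) and Myl12b at 1.04 (0.981 to 1.09). The 4 genes summed to 4630.0 CPM with IL-33 and 4601 CPM with PBS, a ratio of 1.01 (0.979 to 1.03), and this ratio was 1.09 under TMM. Of the windows of Myl6, 70.4% occurred in other genes, all of the leading ones predicted genes with no row in the table. Myl12a and Myl12b are neighbours on chromosome 17 and are 96.5% identical over 516 coding bases, and 65.9% of the 25-base windows of their coding sequences were the same. Their first 60 coding bases are shown for that reason, with the 4 differing bases in capitals. Apart from those bases, a read from this stretch could belong to either gene.
Myl12a: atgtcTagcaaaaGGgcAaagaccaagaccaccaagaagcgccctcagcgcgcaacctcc
Myl12b: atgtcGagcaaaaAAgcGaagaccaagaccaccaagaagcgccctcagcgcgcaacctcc

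The RAC, CDC42 and DOCK genes, which drive protrusion and polarity, all lay within 1.5-fold. Rac2, the RAC gene of blood cells, was at 1268 CPM with IL-33 and 1175 CPM with PBS, a ratio of 1.08 (1.02 to 1.14). Rac1, its widely expressed relative, was at 404 CPM with IL-33 and 529 CPM with PBS, a ratio of 0.764 (0.702 to 0.831). Cdc42, which drives filopodia and polarity, was at 1182 CPM with IL-33 and 1132 CPM with PBS, a ratio of 1.04 (0.989 to 1.10). Under TMM the ratio of Cdc42 was 1.14 (1.08 to 1.20), with an interval above 1. Of the 3, Rac1 alone was lower by more than counting error, and 56.7% of its windows were shared with other genes, chiefly on the opposite strand of Daglb, a gene with 27 counts with IL-33 and 4 with PBS.

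Dock2, which encodes the RAC exchange factor that lymphocytes need to follow chemokines, was at 596 CPM with IL-33 and 811 CPM with PBS, a ratio of 0.735 (0.687 to 0.787) (chromosome 11, 34226815 to 34783892, minus strand). Dock8, for a CDC42 exchange factor whose loss causes immunodeficiency, was at 146 CPM with IL-33 and 183 CPM with PBS, a ratio of 0.799 (0.693 to 0.923). Under TMM the ratio of Dock2 was 0.799 (0.747 to 0.856) and that of Dock8 0.869 (0.754 to 1.004), so that the interval of Dock8 then held 1.

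Comparing relatives within a library sets scaling aside, since both genes are divided by the same total. In 13 families of 2 or 3 members, the share of each gene in its family's counts was computed with its exact 95% binomial interval. The intervals cover counting error only, and no share has a replicate check.

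By share of counts, the widest shifts were in the coronin, cofilin and GMF families. Coro1a made 41.4% (37.8 to 45.1) with IL-33 and 17.7% (13.5 to 22.6) with PBS of the coronin 1 counts. Coro1b made 32.3% (28.9 to 35.9) with IL-33 and 52.6% (46.7 to 58.4) with PBS. By counts the leading coronin gene was thus Coro1a with IL-33 and Coro1b with PBS. Coro1a had 52 counts with PBS, and 21.9% of the windows of Coro1b occurred in Ptprcap, so the lead of Coro1b is uncertain. Dstn made 23.5% (20.7 to 26.4) with IL-33 and 8.86% (5.97 to 12.6) with PBS of its family, against Cfl1 with 71.4% (68.2 to 74.3) with IL-33 and 91.1% (87.4 to 94.0) with PBS. Gmfg made 79.8% (78.1 to 81.4) with IL-33 and 61.4% (56.7 to 66.0) with PBS of the GMF counts. Per kb of transcript the shift of Gmfg was narrower, from 91.0% with PBS to 96.2% with IL-33. On that scale Msn, at 57.8% of the ERM level with PBS and 67.3% with IL-33, shifted more than Gmfg. Among the well-counted families the shifts in share of counts were smaller. Msn made 68.5% (67.3 to 69.6) with IL-33 and 59.9% (58.0 to 61.7) with PBS of the ERM counts. Rac2 made 75.8% (74.8 to 76.9) with IL-33 and 69.0% (67.2 to 70.7) with PBS of the RAC counts. Actb made 38.3% (38.0 to 38.7) with IL-33 and 35.1% (34.5 to 35.7) with PBS of the counts of the 2 actins. In these 3 families the leading gene was the same in both libraries.

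**Figure D3:**
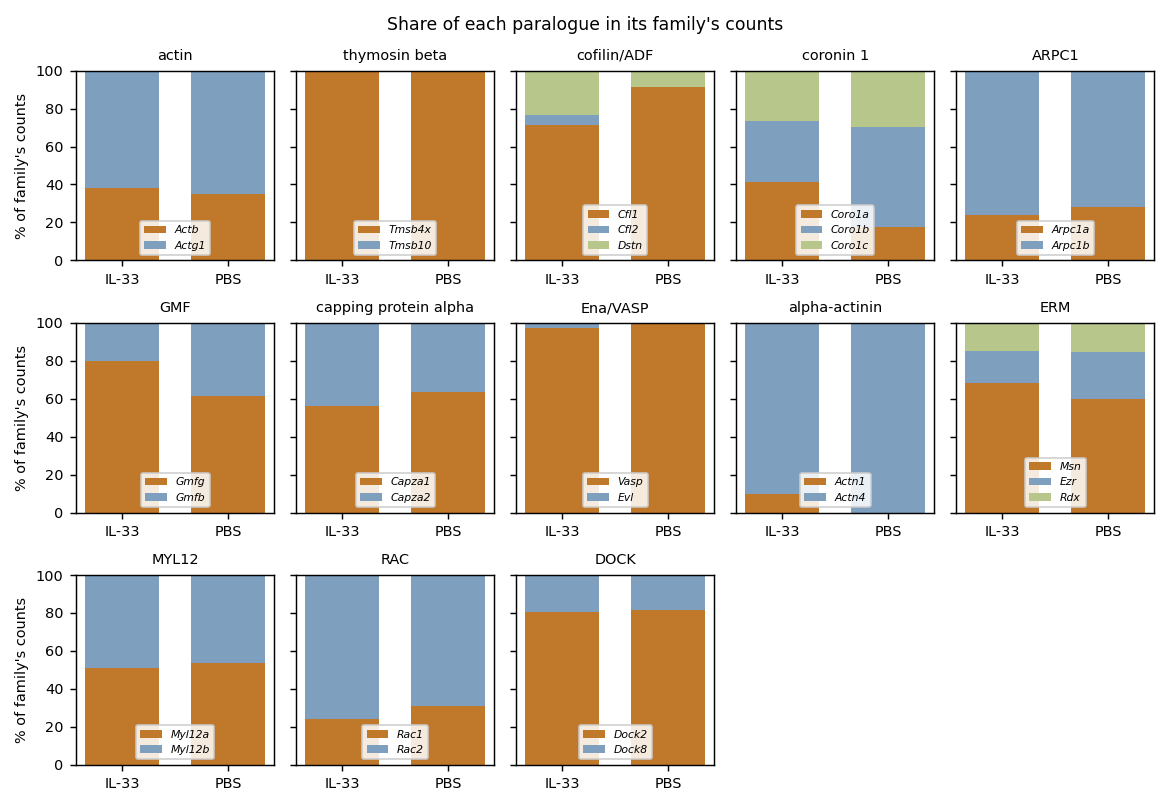
Share of each gene in the counts of its family, in percent, as stacked bars with the IL-33 library on the left and the PBS library on the right of each panel. Coro1a takes 41.4% of coronin 1 counts with IL-33 and 17.7% with PBS, while Dock2 takes 80.3% of the DOCK counts with IL-33 and 81.6% with PBS.

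Shorter members tended to have higher log2 folds than longer ones. Over the 54 members the Spearman correlation of log2 fold and length of the principal transcript was -0.42, and over the 35 abundant members -0.62. Over all 8914 compared genes with an annotated length it was -0.09, and over the 982 of these with a mean of at least 200 CPM it was -0.36. These are descriptions across genes that share both libraries, and genes are not independent replicates. Of the 8 members under 1500 nt, 7 lay above 0 (Tmsb4x, Pfn1, Myl6, Arpc2, Arpc3, Gmfg and Capg), with a median log2 fold of 0.23. Of the 23 members of 3000 nt or more, among them Flna, Tln1, Myh9, Dock2 and Dock8, 15 lay below 0, with a median of -0.13.

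Abundant genes at large showed the same order. Of all 210 abundant genes under 1500 nt, 157 lay above 0, with a median of 0.23, beside 0.25 for the 7 abundant members of that length. Of the 486 abundant genes of 3000 nt or more the median was -0.18, beside -0.11 for 15 members. Between these lengths the median was 0.06 for 13 members and -0.06 for all 286 abundant genes. The part of length in the difference of a gene or group was not tested. Abundant RNAs used to judge RNA quality also differed. Malat1, a nuclear RNA, stood at 54098 CPM with IL-33 and 43678 CPM with PBS, Rn45s, the ribosomal precursor, at 5324 CPM with IL-33 and 3558 CPM with PBS, and B2m at 6324 CPM with IL-33 and 4331 CPM with PBS, while Gapdh was at 69.3 CPM with IL-33 and 73.1 CPM with PBS. The 6 such RNAs summed to 67552 CPM with IL-33 and 52876 CPM with PBS, and their part in the differences of the monomer and ARP2/3 genes was not tested either. Gmfg, at 657 nt, and Tmsb4x, at 768 nt, are among the shortest members, and Dstn, at 1911 nt, and Coro1a, at 1747 nt, are not.

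**Figure D4:**
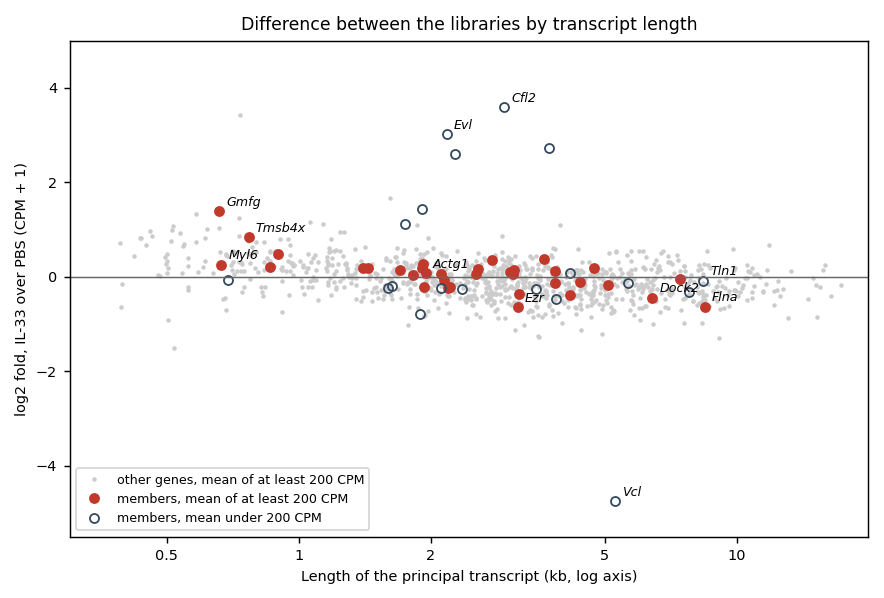
Log2 fold, IL-33 over PBS, against the length of the principal transcript in kb on a log axis, with filled red points for the 35 abundant members, open points for the other 19 and grey points for other genes with a mean of at least 200 CPM. Both red and grey points fall with length, and Gmfg, Tmsb4x and Myl6 sit at the short end while Flna and Tln1 sit at the long end.

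Many genes of the actin cytoskeleton are known targets of serum response factor, which binds the CArG box and is itself held in check by actin monomers through its cofactor MRTF. RefSeq promoter windows (GRCm38.p6, 250 bases before to 50 after a gene's start) were found for 48 of the 54 members. Actb, Twf2, Coro1b, Lsp1, Rac1 and Rac2 had no window and were not searched, so whether they carry the box is not known here. A CArG box, 10 bases long and searched on both strands with no other motif, was present in 4 of these 48 (8.33%) and in 488 of 27025 genes with a window (1.81%). The 4 windows are shown 5′ to 3′ on the strand of the gene, with the box in capitals, because these are the searched members with the box. Of the 4, 2 were past 2-fold (Vcl and Arpc4), beside 6 of the 44 searched members without the box and 31.8% of all genes compared. Both calls rest on thin counts, with Vcl at 0 counts with IL-33 and Arpc4 at 3 with PBS.
Actg1, chr11:120348446-120348745, minus strand: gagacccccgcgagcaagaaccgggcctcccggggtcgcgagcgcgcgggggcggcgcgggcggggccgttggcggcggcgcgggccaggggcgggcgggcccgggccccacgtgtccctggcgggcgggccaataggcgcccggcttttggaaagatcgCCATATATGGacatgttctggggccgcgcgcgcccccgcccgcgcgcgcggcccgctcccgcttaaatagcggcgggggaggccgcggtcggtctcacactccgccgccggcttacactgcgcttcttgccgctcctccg
Myl6, chr10:128492960-128493259, minus strand: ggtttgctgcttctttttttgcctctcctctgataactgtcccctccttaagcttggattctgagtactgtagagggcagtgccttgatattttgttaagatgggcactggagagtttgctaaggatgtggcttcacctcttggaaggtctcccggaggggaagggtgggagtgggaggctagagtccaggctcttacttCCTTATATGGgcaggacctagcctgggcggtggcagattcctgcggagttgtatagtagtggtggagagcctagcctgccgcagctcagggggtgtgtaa
Vcl, chr14:20929148-20929447, plus strand: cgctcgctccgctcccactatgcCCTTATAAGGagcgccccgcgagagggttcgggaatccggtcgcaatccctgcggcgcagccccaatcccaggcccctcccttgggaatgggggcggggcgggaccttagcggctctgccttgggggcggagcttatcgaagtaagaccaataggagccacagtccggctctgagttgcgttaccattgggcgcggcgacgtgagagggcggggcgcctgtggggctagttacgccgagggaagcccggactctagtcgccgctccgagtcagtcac
Arpc4, chr6:113377863-113378162, plus strand: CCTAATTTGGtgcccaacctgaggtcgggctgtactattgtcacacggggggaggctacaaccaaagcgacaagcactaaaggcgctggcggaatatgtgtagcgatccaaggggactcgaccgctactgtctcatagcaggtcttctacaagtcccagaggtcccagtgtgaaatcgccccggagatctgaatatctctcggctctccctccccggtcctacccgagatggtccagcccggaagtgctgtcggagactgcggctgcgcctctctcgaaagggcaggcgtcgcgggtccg
The box of Actg1 began 90 bases before the start and that of Myl6 50 bases before it, while that of Vcl began 227 bases and that of Arpc4 250 bases before it. The RefSeq start of Myl6 lies inside the GENCODE span of the gene, so its window is not upstream of every transcript. The 4 genes did not share a direction. Their log2 folds were 0.08 for Actg1, 0.25 for Myl6, -4.76 for Vcl and 2.60 for Arpc4, and the median of the 44 members with a window and no box was 0.06. A match is a description of the letters and not a binding site.

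Beyond the 54 members, 3 lists of other genes of the same machinery were examined by role, to be read beside the 15.5% higher and 16.3% lower of all genes compared. The 30 WAVE complex and nucleator genes held 23 compared, with 4 higher and 2 lower (4 and 1 under TMM). The WAVE genes Cyfip2, at 301 CPM with IL-33 and 257 CPM with PBS, and Abi1, at 235 CPM with IL-33 and 225 CPM with PBS, were the most abundant, with ratios of 1.17 and 1.04. Cttn, for the branch-stabilising protein cortactin, had 23 counts with IL-33 and 0 with PBS, Spire1, for an actin nucleator, had 21 counts with IL-33 and 0 with PBS, and the formin gene Fmnl1 had 42 counts with IL-33 and 3 with PBS. All 3 were higher on thin counts. Daam1, another formin gene, was also higher, while Nckap1 and Inf2 were lower.

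Of 27 compared genes of turnover, capping and crosslinking, 1 was higher and 3 lower (2 and 2 under TMM). Tagln2, an actin-binding protein of lymphocytes, was at 1206 CPM with IL-33 and 916 CPM with PBS, a ratio of 1.32 (1.24 to 1.40), and the scaffold gene Iqgap1 at 0.955 (0.900 to 1.01). Aif1, an actin-binding protein gene of macrophages, had 0 counts with IL-33 and 24 with PBS. It was lower, with a ratio of at most 0.0641 by its exact conditional interval. The 12 monocyte and macrophage markers summed to 71.1 CPM with IL-33 and 114 CPM with PBS. Lyz1 had 109 counts with IL-33 and 99 with PBS, while Itgam, at 66 counts with IL-33 and 12 with PBS, and Mrc1, at 17 counts with IL-33 and 0 with PBS, were higher in level with IL-33, and Cd68 and Fcgr1 were at 0 in both. The part of such cells in the difference of Aif1 was not tested. Pfn2, the second profilin gene, had 22 counts with IL-33 and 0 with PBS, and Pls3, a relative of Lcp1, 29 counts with IL-33 and 24 with PBS, a ratio of 0.466 (0.262 to 0.836). Cap2, a relative of Cap1, was also lower.

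Integrin linkers held 19 compared genes, 1 higher (Trip6, 23 counts with IL-33 and 0 with PBS) and 1 lower (Rasgrp2). Rap1b, the GTPase that turns integrins on, was at 0.870 (0.819 to 0.925), and Fyb, the adaptor that ties the T cell receptor to integrins, at 1.28 (1.19 to 1.38). Daam1, Nckap1, Inf2, Cap2 and Rasgrp2 were named after their values were seen.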

How the data were processed

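RNA of 2 sorted Treg libraries, 1 per treatment, was measured by poly(A) cDNA amplification, transposon fragmentation and paired 25 bp reads, per the labels' protocols, which name no molecular identifiers. The authors deposited raw counts per gene symbol. TopHat2 2.0.10, Cufflinks 2.2.1 and mm10 are named in the submitters' processing notes. Which counting program and annotation were used, and whether strand was, were not given in the sources used here. Columns were tied to libraries by name.

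CPM values, log2 folds (pseudocount 1 CPM, floor 5 CPM) and exact intervals were computed from the counts with Python 3.11.15, numpy 2.4.6, pandas 2.3.3 and scipy 1.17.1. A single library per group allows no test. TMM factors came from edgeR 4.0.16 and size factors from DESeq2 1.42.0 (R 4.3.3), as alternative scalings alone. A count of 0 allows up to 3 counts, 0.735 CPM with IL-33 and 1.91 CPM with PBS. The computation was tested on simulated data. Positions, lengths and 25-base windows came from GENCODE M21, with the longest of the best-ranked APPRIS transcripts as the principal one. Of the table's symbols 20929 matched directly, 1902 matched an older name and 506 had no match. The 54 members, the lists and the alternatives were chosen with earlier results of these data known. A member group, 2 of its genes and a related list are not reported here. Other genes named are the 3 called genes farthest from 0 with at least 20 counts and the 2 most abundant of each list.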

Additional observations from a re-analysis of the deposited data

How the results depend on the processing

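No call of a single member changed under TMM, DESeq2 size factors, a total without 5 abundant genes, or pseudocounts of 0.5 and 5 CPM, and no result turned its sign while past 2-fold. The count of 8 members past 2-fold was 4 at a floor of 20 CPM, 2 at a mean of 50 CPM and 1 at a mean of 200 CPM, by the removal of thinly counted genes. The members' median was 0.18 under TMM and 0.17 under DESeq2 size factors, and -0.01 at a floor of 20 CPM. Its distance to the median of all genes was 0.14 by library totals and under TMM, 0.09 at a floor of 20 CPM and 0.04 with no floor. The capping median was 0.22 under TMM and 0.21 under DESeq2. The medians of turnover, linker and myosin genes turned their sign under at least 1 setting. Among the other actin genes, WAVE and nucleator calls (6) were 1, 0 and 0 at the floors of 20, 50 and 200 CPM and 10 at 1.5-fold; turnover calls (4) were 0, 0, 0 and 7; and integrin linker calls (2) were 0, 0, 0 and 6, and 1 with a pseudocount of 5 CPM. No paired analysis was possible because each group has 1 library.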
